A study of Mus musculus with 15 samples.

Results

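The cytosolic ribosomal protein genes were followed across RNA immunoprecipitation (RIP) libraries of mice that carry a dominant mutation of Dnmt1, which maintains DNA methylation. They were taken by symbol (Rpl and Rps genes of the cytosolic ribosome, Rpsa, Rplp0, Rplp1, Rplp2 and Fau, without pseudogene symbols and S6 kinases), which gave 85 of the 31017 gene rows. They comprise 43 genes of the large subunit, 3 genes of its stalk, 32 genes of the small subunit and 7 paralogs (Rpl3l, Rpl7l1, Rpl10l, Rpl22l1, Rpl36al, Rpl39l and Rps27l). No measured value entered this rule, though earlier results of these data were known when it was set.

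The Dnmt1 RIP pulled down RNA bound to Dnmt1 from tail fibroblast lines fixed in formaldehyde, with 2 libraries each of wild type (WT), heterozygous (Het) and homozygous (Hom) origin. The m5C RIP pulled down messenger RNA with an antibody to the modified base 5-methylcytosine, in fibroblasts (2 WT libraries, 1 Het and 1 Hom) and cortex (1 library per genotype). Each tissue has 1 library titled input, whose antibody label names IgG and whose genotype is not given. The fibroblast lines came from littermates of 1 sex, per the labels' protocols. The sources used here do not give the Dnmt1 allele, the age of the animals or the number of lines or animals per group. Since nothing says that libraries of 1 group came from separate cultures, p-values reflect only how much these libraries vary, and that variation may be technical. With no input of each genotype, RNA pulled down and RNA abundance cannot be told apart between genotypes, and in bulk samples fewer cells of a type and less RNA per cell cannot be told apart.

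Each ribosome holds about one copy of each of these proteins, with the acidic stalk proteins Rplp1 and Rplp2 as the exception, and their mRNAs are among the most abundant of dividing cells. Most of these mRNAs start with a C followed by a run of pyrimidines, the terminal oligopyrimidine (TOP) tract, through which the mTOR pathway and the RNA-binding protein Larp1 control their translation and stability. Many of the genes also carry small nucleolar RNAs (snoRNAs) in their introns, and most have processed pseudogene copies elsewhere in the genome.

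The start of these genes is shown for 8 members to which the results below return, because the tract is the sequence feature the family is known for. Each line gives 15 bases before and 15 bases from the annotated start, read 5′ to 3′ on the gene's strand from RefSeq (GRCm38.p6, which is mm10). Capitals mark a C followed by pyrimidines, at least 5 bases long in all and beginning within 5 bases of the start.
Rps27: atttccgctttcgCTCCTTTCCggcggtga
Rps6: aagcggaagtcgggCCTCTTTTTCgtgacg
Fau: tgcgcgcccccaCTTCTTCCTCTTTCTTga
Rplp2: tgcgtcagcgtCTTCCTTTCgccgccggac
Rpl35: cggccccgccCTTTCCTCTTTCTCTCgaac
Rpl27: acgctctgttcctgtctgctgctcgtgctg
Rps13: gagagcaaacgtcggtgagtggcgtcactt
Rplp0: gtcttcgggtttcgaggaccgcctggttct

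These windows lie at chr3:90213634-90213663 (Rps27, minus strand), chr4:86857353-86857382 (Rps6, minus), chr19:6057932-6057961 (Fau, plus), chr7:141447636-141447665 (Rplp2, plus), chr2:39005117-39005146 (Rpl35, minus), chr11:101442230-101442259 (Rpl27, plus), chr7:116334176-116334205 (Rps13, minus) and chr5:115559452-115559481 (Rplp0, plus). The first 5 hold a tract at or beside the annotated start and the last 3 hold none in this window. RefSeq had starts for 65 of the 85 members, 77 starts in all. Of these, 14 (18.2%) carried a tract of C and at least 4 more pyrimidines exactly at the annotated start, against 2.51% of 32851 starts of all genes. Within 5 bases of the start a tract began at 32 of the 77 (41.6%), against 18.3% of all starts. Annotated starts need not be the first base of the mRNA, so a missing tract says only that these letters are not in the window.

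Levels are given as CPM, the gene's share of a library's gene counts scaled to 1e+06, with 4 genes left out of the total. These 4 genes, Lars2, Gm42418, Gm26917 and Gm10800, took between 4.01 and 63.5% of a library's gene counts. After that step libraries held 95107 (fibroblast input) to 4576517 (cortex input) gene counts, so that a count of 0, which allows up to 3 counts, allows 31.5 CPM in the fibroblast input and 0.656 to 15.5 CPM in the others. The fibroblast input had 18 members at 0, and each other library at most 4. The fibroblast m5C WT library 1 stood apart in another way: its count reached or exceeded the Hom count in each of 31017 genes and in each of the 85 members, 3 of them equal, and it held Dnmt1 itself at 10690 CPM against 413 to 735 CPM in the other fibroblast m5C libraries. Its member counts were 38588 and those of Hom 36261, or 94.0% of them. The members made up 1.99% of the counts by which it exceeds Hom. Whether these tables share reads was not tested, and the tests, which treat them as separate libraries, assume that they do not. Shared reads would draw the comparison of Hom with WT in m5C RIP toward no difference. Results that rest on either library are given with and without it where they change.

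Fibroblast m5C RIP held the largest share of ribosomal protein reads and cortex the smallest. In fibroblast m5C RIP the 85 members took 4.81 and 5.65% of gene counts for WT, 4.94% for Het and 5.29% for Hom. Their share of cortex m5C RIP was 0.628% for WT, 0.642% for Het and 0.650% for Hom, beside 0.591% for the cortex input. The Dnmt1 RIP lay between, at 1.29 and 2.38% for WT, 0.970 and 3.73% for Het and 1.25 and 2.26% for Hom, and the fibroblast input held 1.39%. This order depends on the 4 genes left out: with them in the total, Hom library 1 of the Dnmt1 RIP (0.457%) and the fibroblast input (0.579%) fell below the cortex m5C libraries (0.590 to 0.621%), while the other Dnmt1 RIP libraries held 0.713 to 3.52% and fibroblast m5C RIP 3.96 to 5.37%. The exact binomial 95% interval of these shares was narrow next to the spread between Dnmt1 RIP libraries, for example 1.24 to 1.35% and 2.32 to 2.43% for the WT pair, and covers counting error only.

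**Figure D1:**
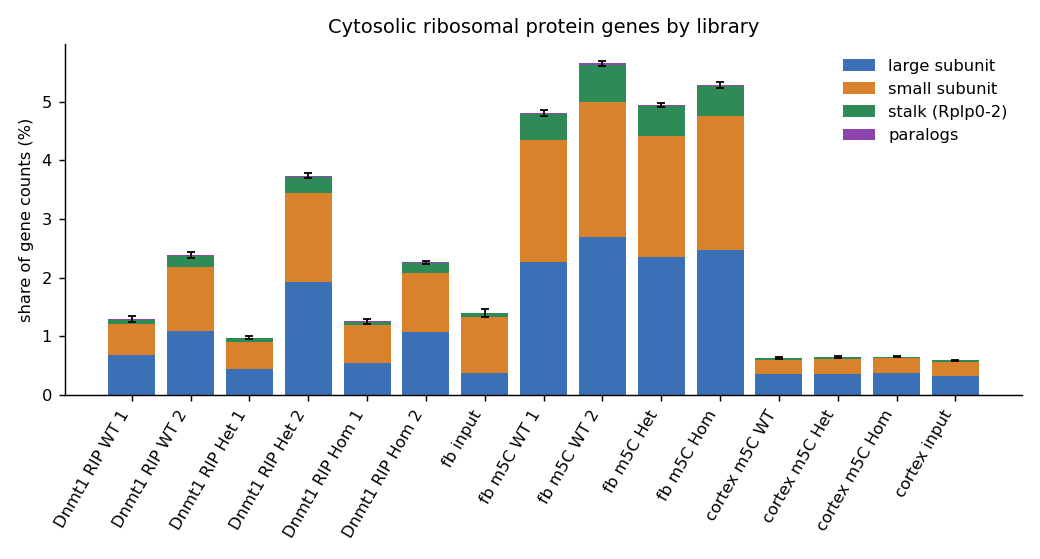
Share of gene counts (%, 4 dominant genes left out) taken by the 85 members in each of the 15 libraries, stacked by large subunit, small subunit, stalk and paralogs; black bars are exact binomial 95% intervals of the whole share. The 4 fibroblast (fb) m5C libraries lie between 4.81 and 5.65%, the 3 cortex m5C libraries between 0.628 and 0.650%, and the second Dnmt1 RIP library of each genotype is above the first.

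Per kilobase of merged exons (GENCODE M21), the median member stood at 261 CPM in fibroblast m5C RIP, where the median detected gene stood at 2.11. The same medians were 92.9 and 3.94 in the Dnmt1 RIP and 34.3 and 4.20 in cortex m5C RIP. Rplp1, a stalk protein that helps recruit elongation factors (chr9:61913284-61914542), had the highest level per kilobase of the members in both fibroblast assays, with a median of 4913 CPM per kb in m5C RIP and 1261 in the Dnmt1 RIP. Rpl41, which encodes the shortest ribosomal protein (chr10:128548114-128549305), followed with 1907 and 624 CPM per kb. In cortex m5C RIP the order changed: Rpl41 led at 239 CPM per kb, with Rps15 at 237 and Rplp1 at 206, and the ranges over the 3 libraries of these leaders overlapped (205 to 263, 192 to 284 and 182 to 219). Rpl4 (133) and Fau (115) came next in cortex, Rpl36, Rps15 and Rplp0 in fibroblast m5C RIP (1271, 1099 and 1047), and Rpl36, Rps15 and Rps27 in the Dnmt1 RIP (501, 494 and 410). The order depends on the length used. With the longest principal transcript, Rpl13 (1828), Rpl37a (1675) and Rps27 (1557) followed Rplp1 and Rpl41 in fibroblast m5C RIP, and in cortex Rpl41 (480) and Rps15 (299) stood further apart, with Rpl37a (237) above Rplp1 (206).

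The lowest levels were those of paralogs. Rpl10l, a testis paralog of Rpl10, had 0 counts in each fibroblast and cortex m5C library, which allows at most 1.30 to 4.37 CPM there. Rpl39l, a testis paralog of Rpl39, had 1 count at most in a m5C library (0.481 CPM in fibroblast Het and 0.435 CPM in cortex Hom). Rpl3l, the striated muscle paralog of Rpl3, lay between 0 and 2.49 CPM in the m5C libraries and between 3.34 and 23.9 CPM in the Dnmt1 RIP, where Rpl3 lay between 175 and 545 CPM. Rpl36al had a median of 1.35 CPM in fibroblast m5C RIP. Its exon overlaps Gm49383 on the same strand, so its count is uncertain. The other 3 paralogs were read throughout the m5C libraries: Rpl7l1 at 62.3 to 81.8 CPM in fibroblast and 30.9 to 39.3 CPM in cortex, Rpl22l1 at 26.0 to 44.7 and 4.06 to 6.52 CPM, and Rps27l, a target of p53, at 105 to 137 and 0.728 to 5.69 CPM. Per kilobase, Rpl7l1 stood at 8.32 to 11.2% of Rpl7 in fibroblast and at 28.1 to 46.6% of it in cortex m5C RIP.

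Ribosomal protein mRNAs were lower in cortex than in fibroblast m5C RIP throughout the family. Of the 81 members tested, 81 were lower in cortex and 0 higher at an adjusted p under 0.05 (edgeR's quasi-likelihood test, genotype as covariate, 7 libraries), where 33% of all 14193 genes tested were lower and 30.9% higher. The median log2 fold change was -3.06, an 8.34-fold lower level, beside -0.06 over all genes. In 81 of 81 members the highest cortex library lay below the lowest fibroblast library, as in 29.7% of all genes. These counts were 80 to 81 when any 1 library was left out, the WT library 1 and the Hom library of fibroblast included. Fibroblast markers (10 genes, Col1a1 and Col1a2 leading) summed to 25765 to 32259 CPM in fibroblast and 621 to 698 CPM in cortex m5C RIP, and neuron markers (8 genes, 8 detected in each) to 398 to 851 and 6730 to 6894 CPM. In these sums each tissue thus carried its own markers. Within the fibroblast list Thy1 overlapped between the tissues, at 277 to 463 CPM in fibroblast and 304 to 414 CPM in cortex. Lum did so near the floor, at 1.25 to 6.26 and 0 to 2.17 CPM. Pdgfra was separated narrowly, at 87.5 to 95.9 and 53.9 to 86.0 CPM, and the other fibroblast markers were higher in fibroblast. Macrophage markers (7 genes, 7 detected in each) summed to 2859 to 5289 CPM in fibroblast and 128 to 138 CPM in cortex m5C RIP, and their part in the result was not tested.

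The stalk genes showed the widest gap, with a median of -4.44 over 3 genes. Rplp1 was read at 2088 and 3285 CPM in fibroblast WT, 2532 in Het and 2371 in Hom, and at 91.0, 103 and 109 CPM in cortex WT, Het and Hom (log2 fold change -4.78, SE 0.27, adjusted p = 3.27e-09 by edgeR). Rplp0, the scaffold of the stalk, ran from 1541 to 2139 CPM in fibroblast and from 92.5 to 110 CPM in cortex (-4.26, SE 0.24). Rplp2 ran from 839 to 992 and from 35.6 to 58.5 CPM (-4.44, SE 0.24). Rplp2 has a tract at its annotated start in the sequences above and Rplp0 has none there, and their differences lay within 1 SE of each other.

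The small subunit had a median of -3.36 over 32 genes, all lower. Rps27, a zinc finger protein of the small subunit (chr3:90212522-90213651), was read at 558 and 516 CPM in fibroblast WT, 458 in Het and 633 in Hom, and at 18.7, 18.9 and 23.9 CPM in cortex (-4.83, SE 0.22, adjusted p = 7.14e-10 by edgeR). No cortex library came near a fibroblast library for this gene. Rps13 (566 to 775 against 20.3 to 25.5 CPM, -4.89), Rps26, which lies at the mRNA exit channel (607 to 806 against 24.0 to 31.3 CPM, -4.83), and Rps27a, which encodes a fusion with ubiquitin (303 to 540 against 21.1 to 23.0 CPM, -4.43), formed the same end of the range. Rpsa, also known as the laminin receptor, was at 1487 to 2537 CPM in fibroblast and 110 to 151 CPM in cortex (-3.90, SE 0.26). Rps4x, the X-linked member, differed by -3.50 and Rps19, a gene mutated in Diamond-Blackfan anaemia, by -3.27. At the other end were Rps7 (305 to 343 against 96.7 to 127 CPM, -1.64), Rps6, the substrate of S6 kinase (348 to 436 against 90.2 to 95.6 CPM, -2.22), Rps3 (-2.22) and Rps15 (-2.37). Fau, which encodes a small subunit protein fused to a ubiquitin-like protein, differed by -2.78.

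The large subunit without the stalk had a median of -2.96 over 43 genes, all lower. Rpl39, at the exit tunnel (639 to 891 against 46.9 to 58.3 CPM), Rpl13 and Rpl36 differed most, by -3.97, -3.96 and -3.94. Rpl5 and Rpl11, which bind 5S ribosomal RNA and Mdm2, differed by -3.24 and -2.44. Rpl10, which joins the subunit late, differed by -3.26 and Rpl41 by -3.14. The least change was that of Rpl35, with 83.5 and 100.5 CPM in fibroblast WT, 88.6 in Het and 83.1 in Hom and 43.1, 58.3 and 74.3 CPM in cortex WT, Het and Hom (-0.77, SE 0.22, adjusted p = 0.00798 by edgeR). Its 2 groups did not overlap, but the gap from 74.3 to 83.1 CPM was narrow. Rpl27 (153 to 180 against 80.5 to 116 CPM, -1.01), Rpl13a (33.6 to 44.3 against 16.3 to 20.9 CPM, -1.13) and Rpl31 (193 to 241 against 97.8 to 122 CPM, -1.14) came next. Of the stretches of 50 bases in the annotated transcripts of Rpl35, 95.1% also occur in transcripts of other annotated genes, and its exons overlap Arpc5l and Wdr38 on the other strand, so its count is uncertain; the share was 41.1% for Rpl13a, 38.8% for Rpl27 and 43.8% for Rpl31, whose exons overlap Tbc1d8 on the other strand. The exons of Rpl13a overlap Gm45713 on the same strand. Of the paralogs, Rps27l differed by -5.04 (SE 0.36), Rpl22l1 by -2.59 and Rpl7l1 by -1.12.

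**Figure D2:**
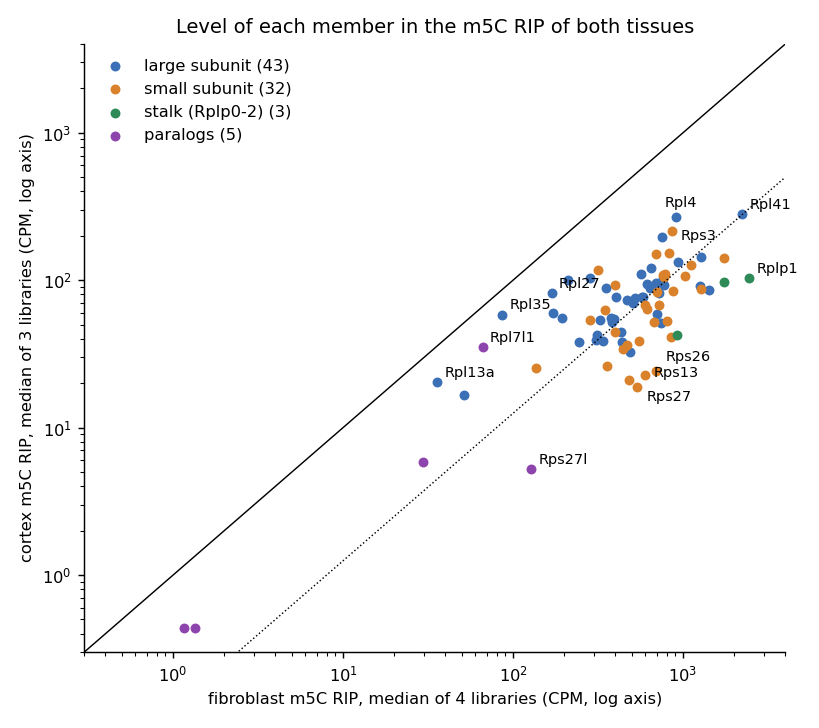
Median CPM of each member in the 4 fibroblast m5C RIP libraries (x, log axis) and the 3 cortex m5C RIP libraries (y, log axis), coloured by subunit, for the 83 members above 0 in both; the solid line marks equal levels and the dotted line a level 8 times lower in cortex. Rpl35, Rpl27, Rpl7l1 and Rpl13a lie nearest to the solid line, and Rps27l, Rps27, Rps13 and Rps26 farthest below the dotted line.

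Grouped by features that the choice of genes did not use, the members had similar median tissue differences. Whether these features bear on the difference was not tested, and the tract groups rest on annotated starts. The 30 members tested that host a snoRNA and the 51 that host none had medians of -3.05 and -3.06. The 30 with a tract within 5 bases of a start and the 31 without one had medians of -3.01 and -3.08. Members of which more than 50% of the 50-base stretches occur in other transcripts (28) and the remaining 53 had medians of -3.05 and -3.06.

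Other genes of the pathway differed less evenly between the tissues. Of 19 translation factors and other TOP mRNAs, 18 were lower in cortex and 0 higher (median -2.51), led by Vim (-6.35), a fibroblast intermediate filament that is also a TOP mRNA, Eef1b2 (-3.60), Rack1 (-3.37) and Eif3e (-2.88). Of 32 ribosome biogenesis factors, 20 were lower and 2 higher (median -0.82), with Ltv1 (-2.49), Pes1 (-1.86) and nucleolin, Ncl (-1.83), lower and Mdn1 (1.74) higher. Mitochondrial ribosomal proteins, which build a separate ribosome, had 36 of 77 lower and 0 higher (median -0.66), led by Mrpl52 (-4.42) and Mrpl28 (-2.18). Of 14 regulators, 5 were lower, among them Eif4ebp1 (-5.47), Myc (-3.84) and Cnbp (-1.87), and 4 higher, among them Mtor (1.74), shares near the 33 and 30.9% of all genes.

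Within the libraries labelled as fibroblast, the Dnmt1 RIP held less ribosomal protein mRNA than the m5C RIP. The cell type markers of these assays also differed, as given below. Of 81 members tested in 10 libraries with genotype as covariate, 77 were lower and 0 higher in the Dnmt1 RIP (edgeR), where 22.6% of all 17124 genes tested were lower and 17.5% higher. The median log2 fold change was -2.05, a 4.14-fold lower level, beside 0.22 over all genes. With any 1 library left out 68 to 78 members were lower and 0 or 1 higher, and with the WT libraries alone 62 were lower (median -1.75). Without normalization factors 60 members were lower (median -1.64), and the calls over all genes went from 3004 higher and 3878 lower to 3830 higher and 2096 lower; the factors shifted this comparison by 0.35 (log2). In 55 of 83 members the highest Dnmt1 RIP library lay below the lowest m5C library, as in 7.08% of all genes, and in 1, Rpl3l at a few counts a library, the lowest lay above the highest, as in 19.3%. Set against the cortex m5C libraries, the Dnmt1 RIP lay above them without overlap in 43 of 83 members (16.8% of all genes) and below them in 0 (6.8%).

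Rps13 differed most between the antibodies, with 51.8 and 119 CPM in the Dnmt1 RIP of WT, 58.5 and 279 of Het and 122 and 165 of Hom, against 566 to 775 CPM in fibroblast m5C RIP (-2.98, SE 0.44, adjusted p = 0.000119 by edgeR). The groups did not overlap. Rpl39 followed with 51.8 to 252 against 639 to 891 CPM (-2.94, SE 0.40), then Rplp0 with 104 to 905 against 1541 to 2139 CPM (-2.83, SE 0.55). Rpl23a had the smallest p (-2.78, SE 0.32, adjusted p = 2.34e-05 by edgeR) at a low level, 5.79 to 16.0 against 37.6 to 62.7 CPM, and 85.7% of its 50-base stretches occur in other transcripts. Rpl7a, which hosts snoRNAs, was at 109 to 245.1 against 431 to 513 CPM (-2.39, SE 0.31).

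The 4 members that did not pass were Rpl35, Rps27, Rps19 and Rpl22l1. Rpl35 was at 72.5 and 113 CPM in the Dnmt1 RIP of WT, 20.05 and 196 of Het and 87.7 and 142 of Hom, on both sides of the 83.1 to 100.5 CPM of m5C RIP (-0.38, SE 0.43, adjusted p = 0.481). Rps19 ran from 62.1 to 542 CPM against 343 to 439 (-1.04, SE 0.48, adjusted p = 0.0941), and Rpl22l1 gave -1.25 (SE 0.49, adjusted p = 0.0538). By subunit the medians were -1.94 (large, 42 of 43 lower), -2.10 (small, 30 of 32), -2.56 (stalk, 3 of 3) and -1.32 (paralogs, 2 of 3). Members that host a snoRNA had a median of -2.23 (30 of 30 lower) and the others -1.94 (47 of 51 lower).

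**Figure D3:**
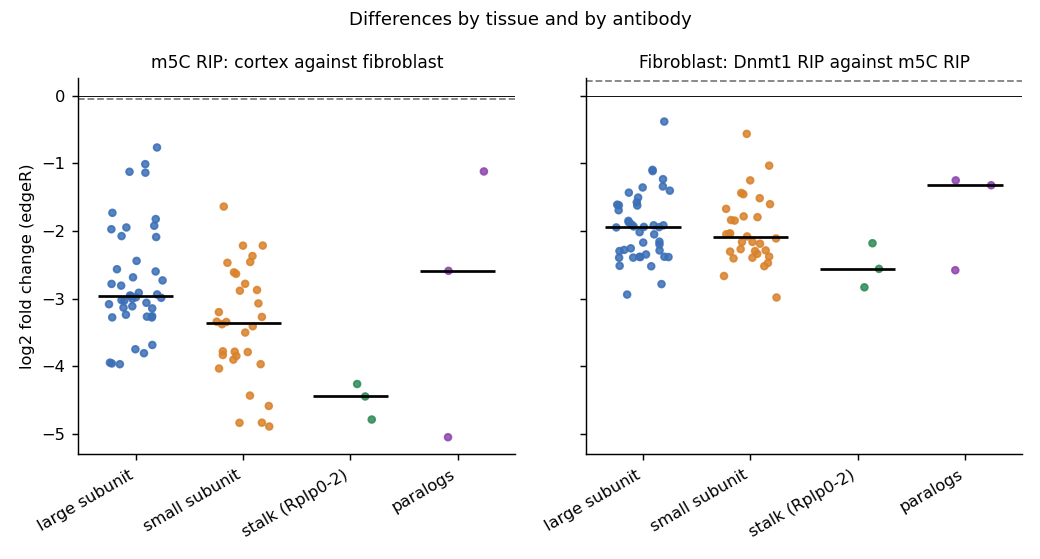
Log2 fold change of each tested member between tissues in m5C RIP (left) and between antibodies in fibroblasts (right), by subunit; each point is a gene, black lines are medians and the grey dashed line is the median of all genes tested. Points lie below 0 in both panels, down to -5.04 on the left and -2.98 on the right, and the stalk has the lowest median in both.

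The antibodies differ in more than their target, and these cannot be told apart here: the m5C RIP started from messenger RNA isolated on oligo-dT beads and the Dnmt1 RIP from fixed cells, per the labels' protocols. Marker genes moved with the same comparison. The Dnmt1 RIP libraries held the 8 neuron markers, 8 of 8 detected, at a summed 2522 to 4027 CPM, against 398 to 851 CPM in fibroblast m5C RIP, and 5 astrocyte markers at 1444 to 2469 against 255 to 467 CPM. Oligodendrocyte markers (5 genes) summed to 989 to 1646 against 182 to 351 CPM, and erythroid markers (4 genes) stayed at or below 66.8 CPM in both. Fibroblast markers summed to 642 to 22503 against 25765 to 32259 CPM, and the 7 macrophage markers to 139.8 to 2111 against 2859 to 5289 CPM. In cortex m5C RIP the neuron and astrocyte markers summed to 6730 to 6894 and 4245 to 4974 CPM. Its fibroblast markers summed to 621 to 698 CPM, a range that holds WT library 1 of the Dnmt1 RIP (642 CPM). The part of these RNAs in the difference was not tested.

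Of the lists, 16 of 19 translation factors and TOP mRNAs were lower in the Dnmt1 RIP than in m5C RIP and 0 higher (median -2.05), with Eef1b2 (-2.84), Vim (-3.03), Npm1 (-2.29) and Naca (-2.13). Biogenesis factors had 18 of 32 lower and 1 higher (median -0.89), with Ltv1 (-2.46), Ncl (-2.15), Bop1 (-1.70) and Rrs1 (-1.98). Mitochondrial ribosomal proteins had 34 of 77 lower and 0 higher (median -0.99), with Mrpl57 (-1.77), Mrpl17 (-1.50), Mrpl10 (-1.89) and Mrpl30 (-2.25). Of 14 regulators 6 were lower, among them Eif4ebp1 (-2.96), Myc (-2.05), Eif4ebp2 (-1.35) and Mdm2 (-1.46). Over all 17124 genes tested, 22.6% were lower and 17.5% higher.

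Genotype was not associated with a called change of any ribosomal protein gene in the Dnmt1 RIP. Of 80 members tested, 0 passed in Het against WT, Hom against WT and Hom against Het by edgeR and by DESeq2, and 0 had an unadjusted p under 0.05 in either tool. Over all 13589 genes edgeR called 0% in either direction in each of the 3 comparisons, and DESeq2 called 11, 0 and 15 genes. The member medians were 0.37 for Het against WT (69 positive, 11 negative; all genes 0.03), -0.17 for Hom against WT (28 and 52; 0.01) and -0.54 for Hom against Het (5 and 75; -0.02). Fibroblast markers summed to 22503 and 8332 CPM in Het against 642 and 2205 in WT and 1281 and 2743 in Hom. Col1a1, Col1a2, Col3a1, Fn1 and Pdgfrb were higher in both Het libraries than in each WT and Hom library. Pdgfra, Thy1, Dcn, Lum and Twist1 were not. Whether these markers bear on the member medians was not tested. The medians rest on single libraries: without Het library 2 the first became -0.82 and the last 0.71, without WT library 1 the first was 0.01, and without WT library 2 or Hom library 1 the second was 0.55 or 0.25. Normalization factors differed by -0.54 (log2) between Hom and WT and by -0.45 between Hom and Het.

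The libraries of a genotype differed more than the genotypes. In WT, 78 of 80 members were higher in library 2 than in library 1 (53% of all genes), in Het 78 of 80 (48.3%) and in Hom 75 of 80 (49.5%), with median log2 differences of 0.95, 1.82 and 0.96. Rpl29, singled out after its values were seen, was at 10.4 and 122 CPM for WT, 5.01 and 328 for Het and 13.3 and 156 for Hom. Rplp1 was at 430 and 868, 341 and 1356, and 276 and 829 CPM in the same order. The sum of 7 macrophage markers was also higher in library 2, at 139.8 and 486 CPM for WT, 172 and 2111 for Het and 213 and 602 for Hom. The complement genes C1qa, C1qb and C1qc and the receptor Csf1r were higher in library 2 of each genotype, whereas Adgre1 was lower there in WT, Ptprc in Het and Hom and Cd68 in Hom. The sum of neuron markers was lower in library 2, at 4027 and 2992, 2702 and 2522, and 3695 and 2813 CPM in the same order. Nefl and Tubb3 were nevertheless higher there in WT, and Rbfox3, Map2, Slc17a7 and Gad1 in Het. C1qb was at 0 in WT library 1 and C1qa at 0 in Hom library 1. The part of these RNAs in this difference was not tested.

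Among single members, Rpl10a (log2 fold change 1.18, SE 0.74), Rps13 (0.99, SE 0.67) and Rpl22 (0.91, SE 0.59) had the smallest p of the positive values in Het against WT, each at an adjusted p of 0.836 by edgeR. Rpl22l1 (-1.28), Rpl39 (-0.52) and Rpl7 (-0.26) led the negative values. Rps3, a protein at the mRNA entry channel that hosts Snord15a and Snord15b (chr7:99477896-99483738), led both Hom comparisons with 0.96 (SE 0.64) against WT and 0.75 (SE 0.64) against Het. Its libraries stood at 461 and 466 CPM for WT, 416 and 580 for Het and 1489 and 350 for Hom, so that Hom library 1 alone was high; without that library the values were -0.34 and -0.57. Negative values in Hom were led by Rps27l (-1.31), Rpl27 (-0.70) and Rpl39 (-0.76) against WT and by Rpl37 (-1.05), Rpl27 (-0.82) and Rpl7a (-0.65) against Het.

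In the m5C RIP of both tissues, ribosomal protein genes were likewise without a called genotype change. Of 81 members tested with tissue as covariate, 0 passed in Het or Hom against WT by edgeR or DESeq2, where 0% of 14193 genes were called in either direction, and 1 member in Het and 0 in Hom had an unadjusted p under 0.05 by either tool. The member medians were -0.02 in Het (all genes -0.03) and 0.05 in Hom (all genes 0.00), and the members spread far less than in the Dnmt1 RIP, from -0.72 to 0.38 in Het and from -0.34 to 0.43 in Hom. Without the fibroblast WT library 1 the medians were -0.13 and -0.03, without WT library 2 they were 0.11 and 0.15, and with total counts alone 0.07 and 0.11, so no direction held under each of these settings.

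Rpl35a gave the smallest p of the positive values in both genotypes, 0.38 (SE 0.22) in Het and 0.43 (SE 0.23) in Hom. It was at 174 and 133 CPM in fibroblast WT, 169 in Het and 190 in Hom, and at 36.6, 64.8 and 59.5 CPM in cortex WT, Het and Hom. In fibroblasts the Het library lay between the WT libraries and the Hom library above both. Rpl27 (0.30) followed in Het and Rpl10 (0.40) and Rpl30 (0.38) in Hom. Rpl23a was the member under an unadjusted p of 0.05 in Het (-0.72, SE 0.32, adjusted p = 0.989 by edgeR), at 56.1 and 47.2 CPM in fibroblast WT and 37.6 in Het and at 19.5 and 7.28 CPM in cortex WT and Het. Rps20 (-0.48) and Rps27a (-0.46) followed in Het, and Rpl38 (-0.34), Rpsa (-0.32) and Rps19 (-0.23) led the negative values in Hom.

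**Figure D4:**
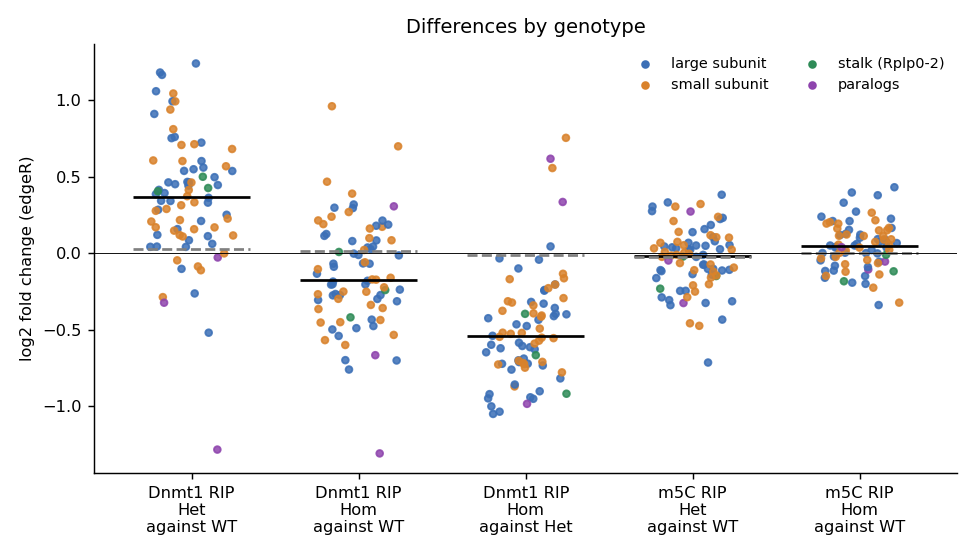
Log2 fold change of each tested member in the 5 genotype comparisons (80 members in the Dnmt1 RIP, 81 in the m5C RIP of both tissues), coloured by subunit; black lines are member medians and grey dashed lines the medians of all genes tested. Members lie between -1.31 and 1.24 in the Dnmt1 RIP and between -0.72 and 0.43 in the m5C RIP, and none passed the threshold.

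None of the 4 other lists held a called gene in a genotype comparison. Their medians in Het against WT were 0.19 (translation factors, 18 tested), 0.07 (biogenesis, 31), 0.41 (mitochondrial ribosome, 72) and 0.29 (regulators, 14) in the Dnmt1 RIP and 0.10, 0.22, -0.06 and 0.04 in m5C RIP. In Hom against WT they were -0.13, 0.04, 0.30 and 0.01 in the Dnmt1 RIP and 0.03, 0.00, -0.08 and -0.10 in m5C RIP. Larp1, the TOP-binding protein, gave 1.01 (SE 0.44, adjusted p = 0.781) in Het against WT and -1.09 (SE 0.43, adjusted p = 0.988) in Hom against Het in the Dnmt1 RIP by edgeR.

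Pull-down over input can be described in cortex, where the input was deep, and hardly in fibroblasts. In cortex the median member stood at 0.988, 0.970 and 1.01 times its input level in WT, Het and Hom, beside 0.957, 0.974 and 0.955 for all genes. In 31 of 81 members the 3 cortex m5C libraries lay above the input, as in 20% of all genes, and in 30 of 81 below it, as in 26.9%. With the 3 libraries set against this 1 input in the fit (the fibroblast input left out, its spread estimated from the m5C libraries), 2 members were higher and 0 lower by edgeR, where 0.0555% of all genes were higher and 0.132% lower. These were Rpl27, at 80.5, 116 and 81.7 CPM against 27.3 in input (1.66, SE 0.28, adjusted p = 0.0146), and Rpl35, at 43.1, 58.3 and 74.3 CPM against 15.7 (1.83, SE 0.33, adjusted p = 0.0307). Rpl31 (97.8 to 122 against 43.3 CPM, 1.21, adjusted p = 0.0958) and Rps14 (152 to 188 against 73.9 CPM, 1.06, adjusted p = 0.315) followed in order of p among the higher ones. Rpl26 (26.0 to 46.5 against 78.2 CPM, -1.14, adjusted p = 0.262) and Rps27 (18.7 to 23.9 against 37.8 CPM, -0.94, adjusted p = 0.424) lay below input in each library. Rpl27, Rpl35 and Rpl31 were also among the members with the least difference between tissues, a comparison that shares these cortex m5C libraries.

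With both inputs in the fit (9 libraries, tissue as covariate), 1 member was lower in m5C RIP than in input and 0 higher by edgeR. Over all 14501 genes, 0.655% were lower and 0.0276% higher. At an unadjusted p under 0.05, 1 member was lower and 20 were higher. DESeq2 called 1 member lower and 11 higher, among 387 genes called in either direction. The lower one was Rps27 (-2.23, SE 0.42, adjusted p = 0.0275 by edgeR). Its call was lost when any 1 of the 4 fibroblast m5C libraries, or cortex WT or Het, was left out. It was also lost with total counts alone. Without the fibroblast input, where Rps27 was at 6056 CPM, the log2 fold change was -0.94. The member median of 0.96 (all genes 0.21) turned on which input was kept: -0.05 with the cortex input alone and 3.54 with the fibroblast input alone. Hnrnpa1 (-2.71, adjusted p = 0.0469 by edgeR) was the called gene among 19 translation factors and TOP mRNAs, and Cnbp (-2.91, adjusted p = 0.035 by edgeR), which binds TOP mRNAs, that among 14 regulators. Both were lower in m5C RIP, and biogenesis factors and mitochondrial ribosomal proteins held none. The regulators summed to 7812 CPM in the fibroblast input and 1286 to 1618 CPM in fibroblast m5C RIP. In cortex they summed to 1414 CPM in the input and 1272 to 1322 CPM in m5C RIP. Whether both calls rest on the fibroblast input was not examined.

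The fibroblast input was sparse. It held 6006 genes above 0 and Rps27 alone made up 43.5% of its member counts; without Rps27 the member share fell from 1.39 to 0.788%. Its fibroblast markers summed to 2092 CPM and its neuron, astrocyte and oligodendrocyte markers to 2050, 1588 and 736 CPM, against 25765 to 32259, 398 to 851, 255 to 467 and 182 to 351 CPM in fibroblast m5C RIP, and the part of these RNAs in the ratios to this input was not tested. In 77 of 81 members the 4 fibroblast m5C libraries lay above it, as in 74.2% of all genes. In the 51 members with more than 3 counts in it, the median ratio to input was 5.02 in fibroblast m5C RIP (48 of 51 above 1) and 1.76 in the Dnmt1 RIP (39 of 51). For the Dnmt1 RIP against this 1 input, with the spread estimated from the RIP libraries alone, edgeR called 3 members higher and 0 lower of 81 (3.31% of all genes higher, 1.68% lower): Rpl7, Rpl32 and Rpl36a, each at 0 in the input. Against 3 counts in the input their mean Dnmt1 RIP levels of 238, 246 and 164 CPM were at least 7.53-, 7.79- and 5.21-fold higher. On the lower side Rps27 (-3.59, SE 0.99, adjusted p = 0.0542), Rpl23a (-2.71, SE 0.96, adjusted p = 0.0961) and Rpl28 (-0.97, SE 0.86, adjusted p = 0.411) had the smallest p by edgeR, and Rps27 passed with RLE size factors, with no filter and without WT library 2. These calls were 0 when WT library 1, Hom library 1 or Hom library 2 was left out and 13 without Het library 1, 1 by DESeq2, and 17 with total counts alone.

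Rps27 followed a set of libraries of its own. It was at 98.3 and 1001 CPM in the Dnmt1 RIP of WT, 545 and 310 of Het and 90.4 and 1267 of Hom, and at 6056 CPM in the fibroblast input. High values thus fell in WT library 2, Het library 1 and Hom library 2, whereas most members were higher in library 2 of Het. Fam221b had its high values in the same libraries, at 20.7 and 7971, 5077 and 94.9, and 26.6 and 8568 CPM and at 47284 CPM in the fibroblast input, and so had the retrogene Rps27rt, at 10.4 and 535, 349 and 17.1, 13.3 and 528, and 2608 CPM. In fibroblast m5C RIP Fam221b stood at 58.3 to 77.3 CPM and Rps27 at 458 to 633 CPM. Of the 50-base stretches of Rps27, 46.2% occur in transcripts of other annotated genes, and reads of such copies cannot be told apart here. The antibody comparison of Rps27 (-0.57, SE 0.61, adjusted p = 0.465 by edgeR) rests on these libraries.

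**Figure D5:**
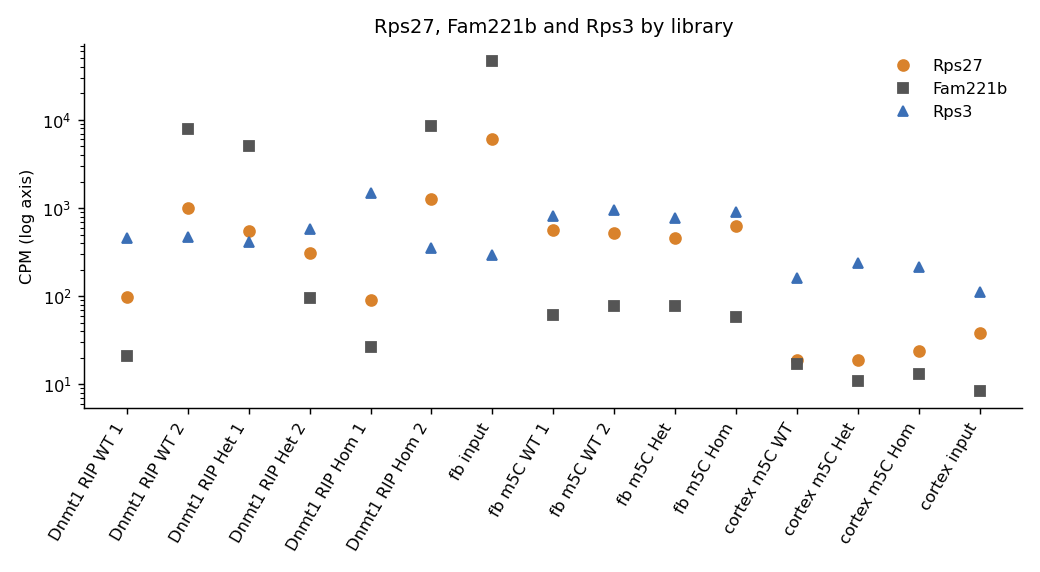
CPM (log axis) of Rps27, Fam221b and Rps3 in each of the 15 libraries (fb, fibroblast). Rps27 and Fam221b are highest in the fibroblast input (6056 and 47284 CPM) and, within the Dnmt1 RIP, high together in WT 2, Het 1 and Hom 2, and Rps3 is highest in Dnmt1 RIP Hom 1 at 1489 CPM.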

How the data were processed

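The submitters' processing notes name Trim Galore 0.4.1, HISAT2, featureCounts and the mm10 build. Annotation, strand setting and other versions: not given in the sources used here. The authors deposited raw counts per gene symbol, 1 table per library; 6 of them also hold entries for reads outside genes, 89.9 to 96.2% of all their entries, which were left out of library sizes. These are the cortex libraries and fibroblast m5C Het and Hom, so a difference in counting cannot be told apart from genotype within fibroblast m5C RIP and goes partly with tissue and antibody; the member share was 4.94 and 5.29% in the fibroblast m5C libraries with such entries and 4.81 and 5.65% in those without. Groups came from the titles.

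All tests were run in R 4.3.3 with edgeR 4.0.16 (filterByExpr with a minimum count of 10 and total of 15, TMM, glmQLFit, glmQLFTest, Benjamini-Hochberg over all genes tested, threshold 0.05); standard errors are the log2 fold change over the square root of F. The common biological coefficient of variation was 0.424 in the Dnmt1 RIP and 0.205 in the m5C RIP. DESeq2 1.42.0 was an alternative. The fits were also run on simulated data, and the outcome is not given here. Tables and plots used Python 3.11.15. Lengths, snoRNA hosts and shared stretches came from GENCODE M21, in which 30464 symbols and all 85 members matched; starts came from RefSeq. Tracts were searched on the gene's strand alone.

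The members, the 4 gene lists (19 translation factors and TOP mRNAs, 32 biogenesis factors, 78 mitochondrial ribosomal proteins, 14 regulators) and the markers were chosen with earlier results of these data known. Genes were named by rule: per comparison the 3 tested members with the smallest p in each direction, the 5 highest and lowest per kilobase, all paralogs, and a fixed set of members with known roles; per list up to 4 genes with the smallest p. A result that the rule would name is not reported here. Further members are named at the ends of a range, after their values were seen. Counting error alone is covered by intervals and floors.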

Additional observations from a re-analysis of the deposited data

How the results depend on the processing

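The lower level in cortex and in the Dnmt1 RIP kept its direction in the median under each alternative run. The cortex median was -2.94 with no filter on low counts and -2.92 with total counts alone, and -3.13 to -2.97 with 1 library left out. With a library left out, the member median ranged in the Dnmt1 RIP from -0.82 to 1.06 (Het against WT) and from -1.17 to 0.71 (Hom against Het), from -0.13 to 0.11 for Het and -0.034 to 0.15 for Hom against WT in m5C RIP, and from -0.055 to 3.54 for m5C RIP against input. Members called in m5C RIP against input numbered 12 with DESeq2, 3 with no filter, 3 with RLE size factors, 0 with total counts alone and 0 to 78 with a library left out. In the Dnmt1 RIP against input they numbered 1, 25 and 17 with DESeq2, no filter and total counts alone, and 0 to 13 with a library left out. The cause was not tested.

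Single members changed sign when 1 library was left out: in Het against WT of the Dnmt1 RIP, Rps13 (-0.38 to 1.93), Rpl39 (-1.72 to 0.16) and Rpl7 (-0.93 to 0.25); in Hom against WT, Rps3 (-0.34 to 1.65); in Hom against Het, Rps3 (-0.57 to 1.42), Rpl22l1 (-5.47 to 1.43), Rpl37 (-1.79 to 0.49) and Rpl27 (-1.40 to 0.12); and in m5C RIP against input, Rps19 (-0.42 to 0.28). Total counts alone gave -0.019 for Rps3 and -0.082 for Rpl7l1 in Hom against Het, 0.28 for Rps19 in m5C RIP against input and 0.16 for Rpl28 in the Dnmt1 RIP against input. The labels share replicate numbers across genotypes but do not say that they pair the libraries. Over 13589 genes, deviations of same-numbered Dnmt1 RIP libraries correlated at -0.0059 (WT with Het), 0.202 (WT with Hom) and 0.0589 (Het with Hom). Over the 80 members the same values were 0.030, 0.347 and 0.197. A correlation does not reflect a shift shared by most members, such as the higher level in library 2. With the replicate number as a block, 0 members were called in the Dnmt1 RIP and their medians were 0.24, -0.15 and -0.44 for Het against WT, Hom against WT and Hom against Het. Genes called over the whole table in these 3 comparisons went from 0 to 192, 13 and 113 with no filter, and without Het library 2 to 38 and 35 for the first and last. In m5C RIP they went from 0 to 10 for each genotype with no filter, and to 10 and 17 without fibroblast WT library 1. For the antibodies they went from 6882 to 3394 with WT alone, for m5C RIP against input from 99 to 387 (DESeq2), 347 (no filter), 8 (total counts alone) and 5 to 5919 (1 library left out), and for the Dnmt1 RIP against input from 827 to 128, 1944 and 1335 and 0 to 850.

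Chosen after seeing the data, fits with the Dnmt1 RIP libraries numbered 1 alone or 2 alone gave member medians of -2.65 and -1.47 against m5C RIP. Depth limits the fibroblast input most, where 3 counts are 31.5 CPM. Counting 18 pseudogene rows with the members moved their share by at most 0.0936 percentage points (fibroblast input).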
